A study of Mus musculus with 168 samples.

Results

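The genes that make, recycle, break down and sense acetylcholine were examined in laser-captured neurons of mice that model spinal muscular atrophy (SMA) and of their littermates. The set was a list of 10 genes chosen by function: Chat, Slc5a7, Slc18a3, Ache, Prima1, Chrm2, Chrna3, Chrna4, Chrna7 and Chrnb4. Of these, 9 were matched to the 39410 rows of the deposited expression table, and Slc18a3 was not analysed here. SMA mice of the "delta7" model lacked mouse Smn (Smn-/-) and carried the human transgenes SMN2+/+ and SMNΔ7+/+. Control mice were Smn+/+ on the same transgenes, so both genotypes expressed the human copies. Neurons came from 5 motor populations (ocular, meaning oculomotor and trochlear; facial; vagus; hypoglossal; lumbar spinal cord) and from the red nucleus, a midbrain nucleus that drives movement but does not contact muscle. Mice were sampled at postnatal days 2, 5 and 10, with 15 control and 19 SMA mice in all and 3 to 7 mice in each of 36 groups. Each tube pooled about 150 cells picked on a quick histological stain, so no single tube resolves subtypes of a nucleus. Of 34 ocular libraries, 11 held a single nucleus only, and the lumbar control libraries of day 5 include reads of an earlier deposit, per the labels.

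Acetylcholine is the transmitter that motor neurons release at the muscle. Choline acetyltransferase (Chat) makes it from choline and acetyl-CoA, the high-affinity choline transporter (Slc5a7) returns choline to the terminal after release, and acetylcholinesterase (Ache), tethered to neuronal membranes by the anchor Prima1, cleaves it in the synapse. Acetylcholine acts through G protein-coupled muscarinic receptors such as Chrm2, which motor neurons carry opposite the large cholinergic C-bouton synapses, and through pentameric nicotinic channels built from alpha and beta subunits. Chrna3 and Chrnb4 form the ganglionic type of channel, Chrna4 forms the most common brain type together with Chrnb2, and Chrna7 forms channels of its own.

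Levels are given as RPKM (reads per kilobase of transcript, scaled to library size), and differences are on the log2(RPKM + 1) scale, which understates changes of low genes. The mouse was the replicate, and a difference was called when limma's adjusted p over all genes tested was under 0.05. Library depth, in units of a mega-read (M), ranged from 0.342 to 16.3 M reads, with a median of 5.89 M reads. Smn1 ranged from 4.32 to 63.3 RPKM in 72 control samples and reached at most 4.24 RPKM in 88 SMA samples, of which 70 were at 0. The summed motor neuron markers Isl1, Isl2, Prph and Mnx1 were 520.3 to 1728.7 RPKM in control motor samples and 26.6 to 97.9 in red nucleus samples. Red nucleus controls instead held the projection neuron marker Pou4f1 at 227.8 ± 132.3 RPKM (SD, n = 11), against means of 0.185 to 1.95 in the motor populations. Mnx1 was near 0 in ocular, facial and vagus samples, so the motor label of those samples rests on Isl1 and Prph. In pooled captures of this kind, fewer cells of a type and less RNA per cell cannot be told apart.

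Chat and Slc5a7, the genes of acetylcholine synthesis and choline uptake, were the members that most separated motor populations from the red nucleus. In control mice of all days, Chat averaged 33.9 ± 19.1 RPKM in ocular (SD, n = 12; lowest 2.06, median 31.2, highest 66.9), 29.6 ± 10.6 in lumbar (n = 13; 14.996, 32.6, 44.1) and 26.0 ± 15.5 in hypoglossal neurons (n = 12; 7.38, 24.1, 62.2). It averaged 21.1 ± 10.5 in vagus (n = 11; 5.83, 17.6, 35.1) and 20.2 ± 9.75 in facial neurons (n = 13; 4.62, 18.3, 35.7). The ranges of all motor neighbours in this order overlapped. All motor ranges lay above that of the red nucleus, where 7 of 11 control mice were at 0 and the highest had 1.72 RPKM. A library at 0 allows up to 3 reads, which was 0.104 RPKM of Chat in the median red nucleus library and 1.87 in the shallowest, that of control mouse 252 at day 10 (0.342 M reads). In the contrast of the motor mean with the red nucleus, where 21.4% of all genes tested were called, Chat was higher by 4.38 (SE 0.182, limma adjusted p = 1.2e-46). No motor population was called against the mean of the others in Chat; the smallest adjusted p was 0.0847, for vagus, with a difference of -0.42 (SE 0.185) that was called after quantile normalization (adjusted p = 0.0302). Without control mouse 244, whose ocular sample had 2.06 RPKM, ocular was called higher by 0.61 (adjusted p = 0.00609) and vagus lower by -0.59 (adjusted p = 0.0111).

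In control mice, Slc5a7 averaged 174 ± 26.6 RPKM in ocular neurons (SD, n = 12; lowest 132, median 168, highest 227), the highest level of any population. Hypoglossal (117 ± 49.2; 54.6, 105, 211), lumbar (113 ± 32.9; 61.2, 116, 155) and facial neurons (95.2 ± 30.4; 40.7, 94.6, 149.6) followed with overlapping ranges. Vagus neurons had 61.9 ± 18.7 RPKM (26.8, 61.6, 83.5), and the red nucleus had 2.39 ± 1.56 (0.0770, 2.01, 6.35), with no overlap between these last ranges. The ocular and vagus ranges of controls did not meet either. Slc5a7 was higher in the motor mean than in the red nucleus by 5.01 (SE 0.126, adjusted p = 3.25e-70), higher in ocular than in the other motor neurons by 0.96 (SE 0.123, adjusted p = 8.82e-11) and lower in vagus by -1.01 (SE 0.128, adjusted p = 2.39e-11). The red nucleus value was above 0 in each of the 11 control mice, unlike that of Chat.

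The promoters of Chat and Slc5a7 are shown because these 2 genes moved together between motor and red nucleus neurons. Each line gives the 250 bases before the RefSeq start (GRCm38.p6, minus strand of both genes), 5′ to 3′, and capitals mark the E-box letters CANNTG, a sequence bound by basic helix-loop-helix factors. The windows are chr14:32465910-32466159 for Chat and chr17:54299035-54299284 for Slc5a7.
Chat: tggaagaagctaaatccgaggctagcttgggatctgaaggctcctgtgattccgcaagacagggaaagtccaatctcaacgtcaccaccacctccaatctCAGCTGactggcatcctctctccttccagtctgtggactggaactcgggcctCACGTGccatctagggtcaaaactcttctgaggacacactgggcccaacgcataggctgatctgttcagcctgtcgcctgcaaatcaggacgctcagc
Slc5a7: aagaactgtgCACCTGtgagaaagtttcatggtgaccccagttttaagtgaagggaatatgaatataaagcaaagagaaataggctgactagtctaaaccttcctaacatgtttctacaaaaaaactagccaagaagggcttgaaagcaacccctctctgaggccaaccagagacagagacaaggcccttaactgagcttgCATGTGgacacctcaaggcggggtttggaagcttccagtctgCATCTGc
The Chat window held 2 matches and the Slc5a7 window held 3. CANNTG reads the same on both strands, and 66.2% of 32841 RefSeq promoters of this length hold at least 1, so a match in these windows is common. Neither window held the GC box GGGCGG on either strand, which 32.7% of promoters hold, nor the homeodomain core TAATTA, which 4.84% hold. Per GENCODE M21, Chat spans chr14:32408203-32465989 and Slc5a7 chr17:54273590-54299034, both on the minus strand. Slc18a3, the gene of the vesicular transporter that loads acetylcholine, lies inside the Chat gene at chr14:32462438-32464850 and shares no exon base with it. The GENCODE model of Chat reaches past the RefSeq start, so 80 of the 250 bases shown for Chat lie inside that gene model; none of the Slc5a7 window does.

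**Figure D1:**
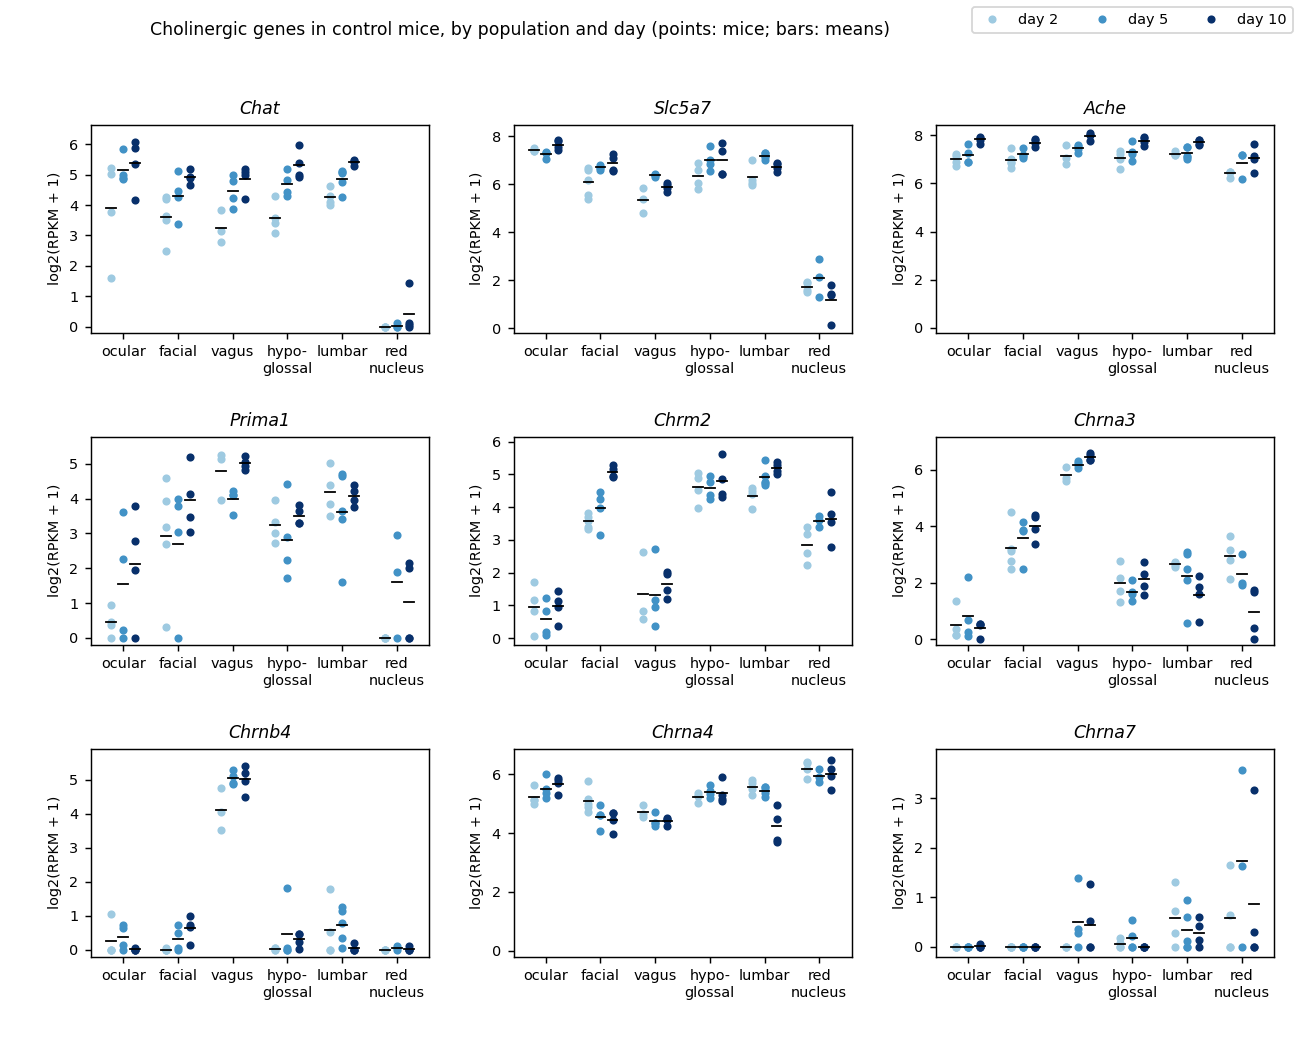
Levels of the 9 genes in control mice on the log2(RPKM + 1) scale (vertical axes, each panel with its own range), by population (horizontal axes) and day (shade of blue); points are mice and bars are group means. Chat and Slc5a7 separate all motor populations from the red nucleus, Chrna3 and Chrnb4 stand apart in vagus, and Chrm2 is low in ocular and vagus neurons.

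Ache was high in every population, the red nucleus included. Control means were 194 ± 52.0 RPKM in vagus (SD, n = 11; lowest 111, highest 271), between 158 and 170.5 in the other motor populations, and 113 ± 39.8 in the red nucleus (n = 11; 70.7, 88.4, 196). All neighbouring ranges overlapped. Ache was higher in the motor mean than in the red nucleus by 0.61 (SE 0.0839, adjusted p = 8.91e-10), and no motor population was called against the others (smallest adjusted p 0.110, vagus). Ache spans chr5:137287519-137294466 on the plus strand and shares 98 exon bases with the opposite-strand gene Gm42456. Whether counting used strand is not stated, so reads over shared bases cannot be assigned.

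Prima1 varied far more between populations than the enzyme it anchors. In controls it averaged 24.8 ± 9.87 RPKM in vagus (SD, n = 11; lowest 10.5, median 27.4, highest 37.4), 16.3 ± 7.83 in lumbar (n = 13; 2.07, 14.6, 31.7) and 11.9 ± 9.55 in facial neurons (n = 13; 0, 10.1, 35.4). Hypoglossal neurons had 9.26 ± 5.00 (n = 12; 2.29, 8.84, 20.3), ocular neurons 3.21 ± 4.55 (n = 12; 0, 0.649, 12.8) and the red nucleus 1.45 ± 2.25 (n = 11), with 7 of 11 mice at 0. In the shallowest red nucleus library, 3 reads correspond to 7.00 RPKM of Prima1. Neighbouring ranges overlapped throughout. Prima1 was higher in the motor mean than in the red nucleus by 2.39 (SE 0.359, adjusted p = 2.01e-08), higher in vagus than in the other motor populations by 1.67 (SE 0.364, adjusted p = 9.40e-05) and lower in ocular by -2.38 (SE 0.350, adjusted p = 1.23e-08). Its transcripts are short (1253 exon bases), and 3 reads correspond to 0.406 RPKM in the median motor library, so the lowest values rest on few reads. The lumbar difference of 0.86 missed the threshold (SE 0.341, adjusted p = 0.0691) and was called without control mouse 29 (0.0287) or after quantile normalization (0.0454).

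Chrm2, the muscarinic M2 receptor, divided the motor populations into high and low groups. In control mice, lumbar (28.5 ± 8.43 RPKM, SD, n = 13; lowest 14.2, median 26.5, highest 42.7), hypoglossal (25.5 ± 8.95, n = 12; 14.6, 23.9, 48.1) and facial neurons (19.1 ± 10.5, n = 13; 7.90, 14.8, 38.2) were high. Vagus (2.15 ± 1.83, n = 11; 0.303, 1.28, 5.57) and ocular neurons (0.901 ± 0.698, n = 12; 0.0435, 0.851, 2.29) were low, and neither reached the lowest facial, hypoglossal or lumbar control. The red nucleus controls lay between the high and low groups at 9.92 ± 4.70 (n = 11; 3.66, 9.52, 20.9). Among SMA mice of day 2, vagus mouse 18 had 6.52 RPKM and facial mouse 211 had 5.80. Against the mean of the other motor populations, Chrm2 was higher in lumbar by 2.04 (SE 0.160, adjusted p = 3.74e-22), in hypoglossal by 1.83 (SE 0.164, adjusted p = 3.15e-18) and in facial by 1.26 (SE 0.160, adjusted p = 1.94e-10). It was lower in ocular by -2.94 (SE 0.164, adjusted p = 3.98e-34) and in vagus by -2.18 (SE 0.171, adjusted p = 6.70e-23). The motor mean and the red nucleus did not differ beyond the threshold (-0.15, SE 0.168, adjusted p = 0.608).

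The nicotinic subunits Chrna3 and Chrnb4 marked the vagus population. In control mice, Chrna3 averaged 73.0 ± 14.5 RPKM in vagus (SD, n = 11; lowest 48.1, median 74.2, highest 95.2), and the highest sample outside vagus had 21.8 (facial, 12.2 ± 5.97). Chrnb4 averaged 28.2 ± 9.35 in vagus (n = 11; 10.5, 28.9, 41.1) and at most 0.520 ± 0.752 elsewhere (lumbar, n = 13), the highest sample outside vagus being 2.56 in hypoglossal. For both genes the vagus range of controls lay wholly above all others. Among SMA mice of day 2, Chrna3 was 21.5 RPKM in vagus mouse 207 and 25.5 in facial mouse 38. Chrnb4 stayed apart in SMA mice, at 10.4 RPKM or more in vagus and 5.88 or less elsewhere. Relative to the other motor populations, vagus was higher by 4.41 in Chrnb4 (SE 0.151, adjusted p = 1.01e-55) and by 4.09 in Chrna3 (SE 0.217, adjusted p = 1.03e-36). Below vagus, the order of Chrna3 was facial, red nucleus (4.24 ± 3.51), lumbar (4.07 ± 2.22), hypoglossal (3.03 ± 1.48) and ocular (0.650 ± 1.01), each range overlapping the next. Facial neurons were called higher in Chrna3 than the other motor populations by 0.89 (SE 0.202, adjusted p = 0.000656), and ocular lower by -2.88 (SE 0.208, adjusted p = 6.08e-25). The hypoglossal and lumbar calls were -1.196 (SE 0.208, adjusted p = 2.65e-06) and -0.91 (SE 0.203, adjusted p = 0.000281); the lumbar call was lost with a pseudocount of 0.1 (adjusted p = 0.111). Chrnb4 was called lower in each of the other 4 motor populations, between -0.93 and -1.23. Each contrast sets a population against the mean of the other 4, vagus included, so a gene that is high in vagus alone is low in the rest by construction.

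Chrna3 and Chrnb4 lie next to each other on the minus strand of chromosome 9, with 1591 bases between the gene bodies (Chrna3 at chr9:55010111-55026562, Chrnb4 at chr9:55028154-55048779, GENCODE M21). Chrna5, an accessory subunit of the same channels, follows after 2331 bases on the plus strand. The 250 bases before the RefSeq starts of Chrna3 (chr9:55026563-55026812) and Chrnb4 (chr9:55048545-55048794) are shown because both genes were highest in vagus, again on the minus strand with E-box letters CANNTG in capitals.
Chrna3: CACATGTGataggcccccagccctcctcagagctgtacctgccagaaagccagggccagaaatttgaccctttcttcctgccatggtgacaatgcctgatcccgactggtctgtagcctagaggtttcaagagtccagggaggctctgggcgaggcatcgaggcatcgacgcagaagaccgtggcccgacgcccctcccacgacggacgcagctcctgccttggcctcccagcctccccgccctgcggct
Chrnb4: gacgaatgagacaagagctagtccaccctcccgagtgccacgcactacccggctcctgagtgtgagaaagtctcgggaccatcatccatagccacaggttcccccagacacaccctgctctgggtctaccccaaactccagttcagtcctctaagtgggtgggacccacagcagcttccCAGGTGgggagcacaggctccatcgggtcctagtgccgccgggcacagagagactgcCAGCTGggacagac
The Chrna3 window held 2 matches that overlap in the run CACATGTG at its far end, and the Chrnb4 window held 2, the nearer one 14 bases before the RefSeq start. The GENCODE model of Chrnb4 starts farther upstream, so 235 of the 250 bases shown for Chrnb4 lie inside it, and none of the Chrna3 window lies inside Chrna3. The GC box was found once in the Chrna3 window, on the opposite strand, and not in that of Chrnb4. GC content was 63.2% and 61.2%, against 54.8% for Chat, 45.6% for Slc5a7 and a median of 52.4% over all promoters.

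Vagus captures also held monoaminergic markers. The 4 listed markers Th, Slc6a3, Tph2 and Dbh summed to 35.8 to 135 RPKM in the 11 vagus control samples and to at most 14.9 in any control sample of the other motor populations. In the red nucleus, control mouse 28 of day 2 reached 159.7 RPKM, with Th at 96.3 and Slc6a3 at 63.4, while the median of the 11 controls was 0.130. In the vagus controls, Th averaged 41.4 ± 23.8 RPKM (SD, n = 11), Dbh 29.6 ± 21.0 and Slc6a3 8.73 ± 4.28, with none at 0, while Tph2 averaged 0.508. The 4 vagus controls with the lowest sums (35.8, 40.4, 50.6 and 52.2 RPKM) had Chrna3 at 70.6, 65.5, 51.7 and 68.2 RPKM and Chrnb4 at 28.3, 33.8, 26.2 and 10.5. The 4 with the highest sums (105, 110.2, 120.4 and 135 RPKM) had Chrna3 at 95.2, 48.1, 80.5 and 81.1 and Chrnb4 at 21.4, 15.6, 35.7 and 41.1. In the order given, the lowest sums came from mice of days 5, 5, 2 and 2 and the highest from days 10, 2, 10 and 10. The part of monoaminergic cells in these levels was not tested.

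Chrna4 ran the other way. In controls it was highest in the red nucleus at 66.9 ± 14.2 RPKM (SD, n = 11; lowest 43.3, median 70.8, highest 87.8), followed by ocular (44.2 ± 10.7), hypoglossal (39.6 ± 7.55), lumbar (36.6 ± 13.9), facial (26.9 ± 9.63) and vagus neurons (21.8 ± 3.62), each range overlapping the next. The motor mean was lower than the red nucleus by -1.03 (SE 0.0987, adjusted p = 5.14e-17). Among motor populations Chrna4 was called higher in ocular (0.55, SE 0.0962, adjusted p = 1.46e-06) and hypoglossal (0.39, SE 0.0960, adjusted p = 0.00220) and lower in vagus (-0.62, SE 0.1001, adjusted p = 8.67e-08) and facial (-0.39, SE 0.0936, adjusted p = 0.00132). Its partner Chrnb2 had control means of 11.2 to 15.6 RPKM in the 6 populations and was called only in vagus (0.32 higher, SE 0.126, adjusted p = 0.0496); it was named after its values were seen. Chrna7 was scarce. All 13 facial controls were at 0, where 3 reads would be 0.113 RPKM in the median motor library, and the red nucleus held 2.17 ± 3.72 RPKM (n = 11), from 0 in 5 mice to 10.8 in the highest, where 3 reads would be 0.108 RPKM in the median library and 1.95 in the shallowest. The motor mean of Chrna7 was lower than the red nucleus by -0.90 (SE 0.191, adjusted p = 8.46e-05). The red nucleus mean rested mainly on mouse 30 of day 5 (10.8 RPKM) and mouse 247 of day 10 (7.94). Its median was 0.234 RPKM, near that of lumbar controls (0.218), while the medians of the other motor populations were 0.

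In total, 31 of 54 tests of a member between populations were called, 16 higher and 15 lower. Read against the share of all genes called in the same contrasts, members were called in 8 of 9 tests of motor against red nucleus (21.4% of genes), 6 of 9 for ocular (18.9%), 4 of 9 for facial (7.94%), 6 of 9 for vagus (27.4%), 4 of 9 for hypoglossal (8.99%) and 3 of 9 for lumbar (17.1%). The median difference of the 9 members was 0.81 in motor against red nucleus, where that of all genes was 0.06, and between -0.21 and 0.18 in the other 5. The 0.81 is the value of Chrna3, whose control mean exceeded that of the red nucleus (4.24 RPKM) only in vagus (73.0) and facial neurons (12.2). Chrnb4, also called higher in the motor mean, had 28.2 RPKM in vagus and at most 0.520 in other motor populations. These calls, and the lower calls of both genes elsewhere, thus rest largely on vagus and are not a general motor result.

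The rest of the cholinergic pathway was taken from a list of 28 further genes (27 in the table), of which 23 passed the filter on low values in the fit over all populations. They gave 63 calls in 138 tests, 32 higher and 31 lower. Of 23 genes each, 9 were called in motor against red nucleus (21.4% of all genes), 11 in ocular (18.9%), 8 in facial (7.94%), 16 in vagus (27.4%), 9 in lumbar (17.1%) and 10 in hypoglossal neurons (8.99%). Acly, which makes the cytosolic acetyl-CoA that Chat uses, was higher in the motor mean than in the red nucleus by 2.11 (SE 0.0667, adjusted p = 2.12e-59) and higher in ocular than in other motor neurons by 1.18 (SE 0.0651, adjusted p = 1.79e-34). Its control means were 539 RPKM in ocular, 327 in lumbar, 269 in facial, 242 in hypoglossal, 153 in vagus and 63.7 in the red nucleus. This order placed ocular highest and vagus lowest among the motor populations, as for Slc5a7. Chrm1, the muscarinic M1 receptor, was an ocular gene, with 29.8 ± 15.9 RPKM there (SD, n = 12) and means of at most 0.336 elsewhere (ocular against other motor 4.56, SE 0.0957, adjusted p = 9.09e-80). Ocular neurons thus held Chrm1 with little Chrm2, while lumbar, hypoglossal and facial neurons held Chrm2 with little Chrm1.

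Other receptor subunits followed the vagus pattern. Chrna6, a subunit best known from dopamine neurons, averaged 25.1 ± 8.4 RPKM in vagus and 5.94 ± 5.0 in the red nucleus, with at most 0.368 elsewhere (vagus against other motor 4.42, SE 0.153, adjusted p = 3.47e-55). Chrna5 averaged 21.97 ± 6.1 in vagus (3.49 higher, SE 0.225, adjusted p = 3.55e-29). Over the 4 vagus controls with the lowest monoaminergic sums Chrna6 was 28.4, 21.3, 11.4 and 18.4 RPKM, and over the 4 with the highest it was 35.3, 19.5, 35.7 and 38.1. In the red nucleus, mouse 28, with the highest monoaminergic sum, had Chrna6 at 3.71 RPKM, the median there. The part of monoaminergic cells in Chrna6 was not tested. Lynx1, an anchored protein that dampens nicotinic channels, was lower in vagus by -2.29 (SE 0.0814, adjusted p = 4.96e-54; mean 32.3 RPKM) and higher in lumbar by 0.98 (SE 0.0762, adjusted p = 2.90e-22; mean 177). Bche, a second cholinesterase, averaged 19.5 ± 9.2 RPKM in vagus, 8.97 in facial and 6.65 in hypoglossal neurons, and was called higher in the motor mean than in the red nucleus (1.97, SE 0.187, adjusted p = 3.50e-17). Lypd6 and Lypd6b, further relatives of Lynx1, were highest in hypoglossal (Lypd6 47.5 RPKM) and lumbar neurons (Lypd6b 28.1 RPKM), with Lypd6 called higher in hypoglossal by 2.04 (SE 0.202, adjusted p = 1.06e-15) and Lypd6b higher in lumbar by 2.04 (SE 0.210, adjusted p = 4.53e-15). The motor mean of Lypd6b was nevertheless called lower than the red nucleus, by -1.25 (SE 0.221, limma adjusted p = 1.59e-06).

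**Figure D2:**
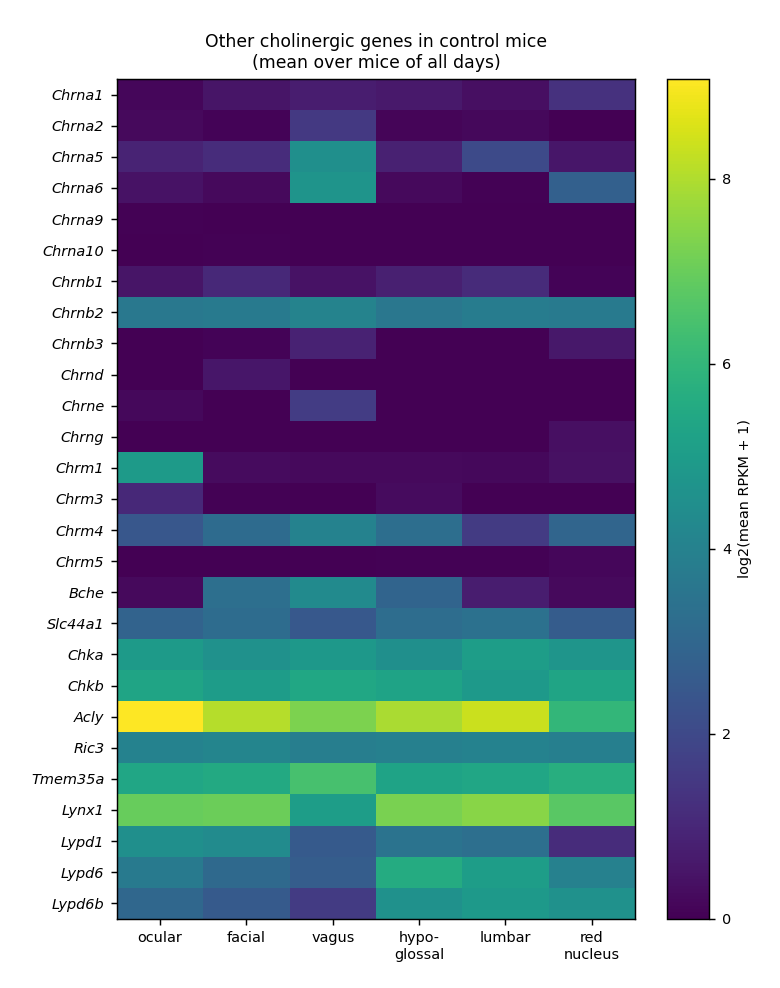
Mean level of 27 other cholinergic genes in control mice of all days as log2(mean RPKM + 1) (colour), by gene (rows) and population (columns). Chrm1 is bright only in the ocular column, Chrna5 and Chrna6 are brightest in the vagus column, and Acly is the brightest row, from 63.7 RPKM in the red nucleus to 539 in ocular neurons.

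The next comparison asked how these genes moved with postnatal age in control mice. Between day 2 and day 10, 12 of 48 member tests were called, 10 higher and 2 lower. The shares of all genes called were 8.02% in ocular, 5.36% in facial, 1.02% in vagus, 5.11% in hypoglossal, 12.0% in lumbar and 11.1% in red nucleus. Between day 2 and day 5, 1 of 48 was called, against shares of 0.17% in ocular, 0.0232% in facial, 0.0% in vagus, 0.0121% in hypoglossal, 1.51% in lumbar and 0.174% in red nucleus. Synthesis and breakdown enzymes made up 7 of the 12 calls from day 2 to day 10. The median day 10 difference of the members tested was 0.79 in facial, 0.55 in vagus, 0.46 in ocular, 0.29 in red nucleus, 0.27 in hypoglossal and -0.10 in lumbar neurons, while the median over all genes lay between -0.10 and 0.06.

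Chat rose with age in hypoglossal, lumbar and vagus neurons. In hypoglossal controls it was 7.38, 9.58, 10.9 and 18.6 RPKM at day 2 and 29.4, 30.7, 40.7 and 62.2 at day 10 (1.73 higher, SE 0.324, limma adjusted p = 0.00135). In lumbar controls it was 14.996, 16.3, 18.8 and 23.5 at day 2 and 37.9, 42.1, 43.0 and 44.1 at day 10 (1.16, SE 0.201, adjusted p = 0.000156). In vagus controls it was 5.83, 7.80 and 13.3 at day 2 and 17.4, 30.6, 33.2 and 35.1 at day 10 (1.62, SE 0.384, adjusted p = 0.0363). No day 10 sample overlapped a day 2 sample in these 3 populations or in facial neurons, where the difference of 1.29 missed the threshold (SE 0.476, adjusted p = 0.127). Ocular neurons differed by 1.46 (SE 0.526, adjusted p = 0.0892), with day 2 values spread from 2.06 to 36.3 RPKM; the ocular difference was called without control mouse 14, 28 or 247 (largest adjusted p 0.0393) or with each library as its own sample (0.0287), and the facial one without SMA mouse 38 (0.0275). The vagus call was lost in 7 of 30 alternatives, among them leaving out control mouse 26, 240, 252, 253 or 254 (largest adjusted p 0.180, without mouse 240). In the red nucleus, all 4 day 2 samples were at 0 and the day 10 samples were 0, 0.0473, 0.0870 and 1.72 RPKM.

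Ache rose in ocular, facial, hypoglossal and lumbar neurons. Ocular controls had 105, 118, 141 and 147 RPKM at day 2 and 200.5, 223, 238 and 245 at day 10. Facial controls had 99.02, 113, 117, 128 and 176 at day 2 and 181, 202, 220.4 and 226 at day 10. In both, each mouse of day 10 was above each mouse of day 2. Hypoglossal controls went from 96.8, 128, 148 and 161 to 185, 212, 232 and 239. Lumbar controls went from 143, 145, 147 and 163 to 194, 201, 220.5 and 224. On the log2 scale Ache was higher at day 10 by 0.83 (SE 0.159), 0.73 (SE 0.180), 0.71 (SE 0.180) and 0.49 (SE 0.123) in these populations in the order given. The corresponding limma adjusted p-values were 0.00111, 0.0143, 0.0161 and 0.00734. Day 2 and day 10 did not overlap in any of these, nor in vagus (145 ± 41.8 to 250.1 ± 23.4 RPKM, SD, n = 3 and 4), where the difference of 0.82 missed the threshold (SE 0.227, adjusted p = 0.0808) and was called without control mouse 244 (0.0454) or SMA mouse 77 (0.0389). In the red nucleus Ache averaged 84.4 ± 6.37 RPKM at day 2 and 138 ± 45.6 at day 10 (SD, n = 4 each), overlapping, with a difference of 0.64 (SE 0.256, adjusted p = 0.113) that was called without control mouse 247 (0.85, adjusted p = 0.0326). The facial call was lost without control mouse 253 (adjusted p = 0.0520). The hypoglossal call was lost without control mouse 240 (0.0837) or 254 (0.0594), and in a fit restricted to the groups being contrasted (0.0832).

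Slc5a7 rose between day 2 and day 5 in lumbar controls, from 61.2, 64.5, 71.6 and 127.1 RPKM to 127.7, 138, 143, 155.4 and 155.5 (0.88, SE 0.169, adjusted p = 0.00487), and stood at 88.9, 101, 115 and 116 at day 10. SMA lumbar samples averaged 105 ± 19.7 RPKM at day 2 (SD, n = 7), 142 ± 18.5 at day 5 (n = 5) and 96.3 ± 12.8 at day 10 (n = 5). The control samples of day 5 are those with reads of an earlier deposit, and the part of those reads in the difference was not tested. In facial neurons Slc5a7 was called higher at day 10 by 0.80 (SE 0.239, adjusted p = 0.0488), with day 2 at 40.7, 45.8, 70.4, 94.4 and 102 RPKM and day 10 at 93.4, 94.3, 136 and 149.6. These ranges overlapped, and the call was lost in 23 of 32 alternatives, up to an adjusted p of 0.169 without control mouse 252.

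Among receptors, Chrm2 rose in facial and lumbar neurons. Facial controls had 8.997, 9.53, 10.9, 12.1 and 13.2 RPKM at day 2 and 29.0, 29.6, 35.1 and 38.2 at day 10 (1.51, SE 0.273, adjusted p = 0.000787). Lumbar controls had 14.2, 19.9, 21.6 and 22.9 at day 2 and 31.2, 33.2, 38.0 and 40.6 at day 10 (0.84, SE 0.190, adjusted p = 0.00272). Neither pair of ranges overlapped. Chrna4 fell in lumbar neurons, from 38.2, 43.9, 51.4 and 55.3 RPKM at day 2 to 12.1, 12.4, 21.2 and 30.2 at day 10 (-1.35, SE 0.224, adjusted p = 8.03e-05). It was still 36.2 to 46.4 RPKM in the 5 lumbar controls of day 5. The change of Chrna4 with age differed between the motor populations (F = 11.3, adjusted p = 2.72e-05 in limma's F test, in which 2.6% of all genes were called). Its day 10 minus day 2 differences were -1.35 in lumbar, -0.66 in facial, -0.30 in vagus, 0.14 in hypoglossal and 0.46 in ocular neurons. No other member was called in that F test (next Chrnb4, adjusted p = 0.199). In the red nucleus Chrna3 fell from 3.43, 5.95, 8.02 and 11.5 RPKM to 0, 0.313, 2.19 and 2.34 (-1.99, SE 0.469, adjusted p = 0.00690), without overlap. The sample at 0 is the shallowest library (mouse 252), where 3 reads would be 1.67 RPKM, and without it the difference was -1.67 (adjusted p = 0.0333). The call was lost in a fit restricted to the groups being contrasted (adjusted p = 0.0627).

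Captured glial RNA also moved with age. The 3 oligodendrocyte markers Mbp, Mog and Mag summed to medians of 3.33 to 35.4 RPKM at day 2 and 157 to 571 at day 10 in the ocular, facial, hypoglossal, lumbar and red nucleus controls. In vagus controls the sums were 15.1 to 60.1 RPKM at day 2 and 11.8 to 34.0 at day 10, and overlapped. The part of glial RNA in the changes with age was not tested.

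**Figure D3:**
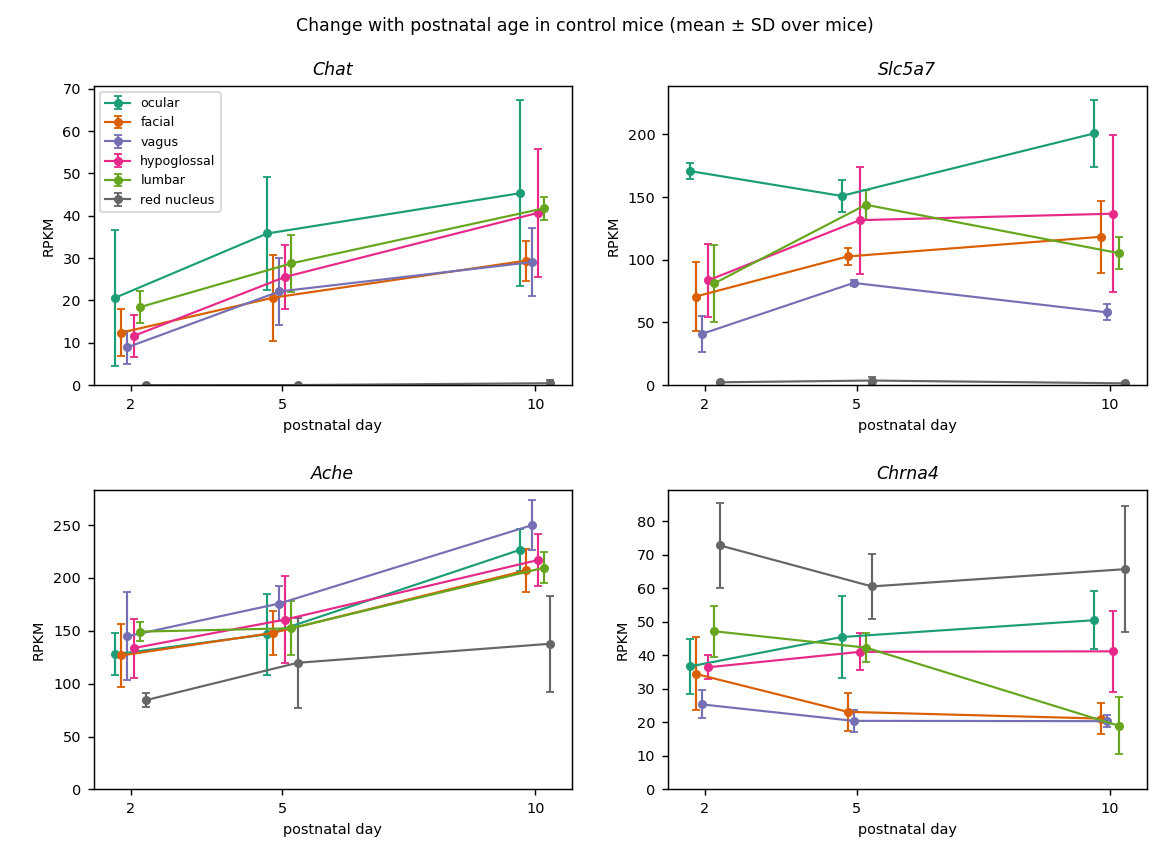
Mean level of Chat, Slc5a7, Ache and Chrna4 in control mice (vertical axes, RPKM) against postnatal day (horizontal axes), by population (colour); error bars are SD over 3 to 5 mice. Chat and Ache means climb from day 2 to day 10 in each motor population, Slc5a7 peaks at day 5 in lumbar and vagus, and Chrna4 drops in lumbar neurons from 47.2 to 19.0 RPKM.

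The further cholinergic genes gave 16 calls in 102 tests from day 2 to day 10, 14 higher and 2 lower, and 1 call from day 2 to day 5. From day 2 to day 10 these were 4 of 15 in lumbar (12.0% of all genes), 4 of 17 in facial (5.36%), 3 of 17 in ocular (8.02%), 2 of 17 in hypoglossal (5.11%), 2 of 18 in red nucleus (11.1%) and 1 of 18 in vagus neurons (1.02%). The call at day 5 was in lumbar neurons (1 of 15, 1.51% of all genes). Lynx1 rose in all 6 populations, by 0.68 in lumbar to 1.82 in red nucleus (adjusted p at most 0.00940); in the red nucleus its mean went from 49.997 ± 10.5 to 182 ± 52.8 RPKM (SD, n = 4 each). Acly rose in facial (1.08, SE 0.160), hypoglossal (0.98, SE 0.159), ocular (0.72, SE 0.172) and lumbar neurons (0.47, SE 0.0964), with adjusted p at most 0.00777. Slc44a1, a choline transporter-like protein, rose in lumbar (1.88, SE 0.268, adjusted p = 1.02e-05) and facial neurons (1.38, SE 0.361, adjusted p = 0.0201). Chrm1 rose in ocular neurons from 18.1 ± 5.38 to 49.97 ± 6.45 RPKM (n = 4 each; 1.45, SE 0.261, adjusted p = 0.000560), and Chrnb1 rose in facial neurons (1.38, SE 0.362, adjusted p = 0.0208). Chrna5 fell in lumbar neurons (-1.85, SE 0.391, adjusted p = 0.00139), Lypd1 fell in the red nucleus (-1.18, SE 0.348, adjusted p = 0.0288), and Chrm4 was lower at day 5 than at day 2 in lumbar neurons (-1.27, SE 0.296, adjusted p = 0.0229). In the F test across motor populations, 6 of 23 further genes were called. Among these, Chrne rested on 2 vagus controls of day 2 with 11.6 and 11.2 RPKM, the other vagus samples of both genotypes being at 0.

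SMA and control mice were then compared in each population at each day. Of 144 member tests in 18 comparisons, 1 was called: Chrm2 was lower in SMA facial neurons at day 10. The shares of all genes called in these comparisons at days 2, 5 and 10 were 0.132%, 0.0252% and 0.359% in ocular, 0.0232%, 0.0695% and 0.666% in facial, and 0.00599%, 0.00599% and 0.00599% in vagus neurons. They were 0.0364%, 0.00607% and 0.0728% in hypoglossal, 0.0122%, 0.0488% and 0.775% in lumbar, and 0.0434%, 0.0062% and 0.0124% in red nucleus neurons. At an unadjusted p under 0.05 there were 15 of 144. The further cholinergic genes gave 0 calls in 306 tests with limma, with 28 at an unadjusted p under 0.05. In the same comparisons, between 498 of 16134 genes (red nucleus, day 5) and 1787 of 15890 (ocular, day 2) were at that cut. The median difference of the members lay between -0.37 (facial, day 10) and 0.22 over the 18 comparisons, and that of all genes between -0.01 and 0.13.

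At day 10, facial Chrm2 was 29.0, 29.6, 35.1 and 38.2 RPKM in controls (mean 33.0 ± 4.44, SD, n = 4) and 7.56, 9.72, 13.1 and 13.1 in SMA mice (10.9 ± 2.72, n = 4). Each SMA sample was below each control, and the mean was lower by a factor of 3.04. The difference was -1.54 (SE 0.288, adjusted p = 0.00537 in limma) and was called in all 32 alternatives run, from -1.39 to -1.63 with a largest adjusted p of 0.0381. At day 5 the values were 7.90, 14.8, 18.0 and 21.0 RPKM in controls and 14.0, 15.5 and 18.4 in SMA mice. At day 2 they were 8.997 to 13.2 in 5 controls (median 10.9) and 5.80 to 17.2 in 7 SMA mice (median 9.70). Genotypes thus overlapped at days 2 and 5. SMA facial means were 9.95, 16.0 and 10.9 RPKM at days 2, 5 and 10, while control means were 10.9, 15.4 and 33.0. The test that the change from day 2 to day 10 differed between genotypes gave -1.36 (SE 0.374, adjusted p = 0.304), past no threshold after adjustment.

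Among other features of those samples, the astrocyte marker sum was apart between genotypes. Motor neuron marker sums, depth and the level of an opposite-strand gene overlapped. The 4 astrocyte markers Gfap, Aqp4, Aldh1l1 and Slc1a3 summed to 30.9 to 49.5 RPKM in the SMA facial samples of day 10 and to 13.1 to 24.5 in controls. Gfap (11.6 to 22.8 against 0.732 to 3.00 RPKM) and Aqp4 (6.58 to 13.4 against 3.32 to 6.34) did not overlap between genotypes, Aldh1l1 and Slc1a3 did, and none of the 4 was at 0. Motor neuron marker sums were 1469.8 to 1734.5 RPKM in SMA and 1308.2 to 1675.1 in controls. Depth was 2.91 to 3.71 M reads in SMA libraries and 2.76 to 9.29 M reads in controls. Chrm2, at chr6:36388084-36528414 on the plus strand, shares 142 of its 6053 exon bases with the opposite-strand gene 9330158H04Rik, which was 37.8 to 107 RPKM in the controls and 3.00 to 68.7 in the SMA mice. The part of astrocyte RNA or of that antisense gene in the Chrm2 difference was not tested.

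**Figure D4:**
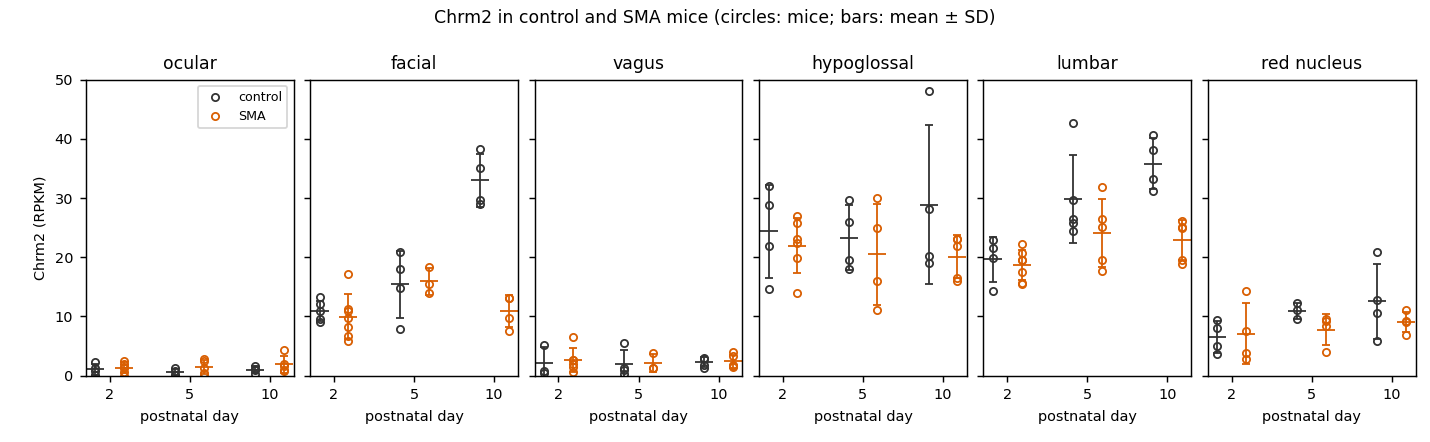
Chrm2 level (vertical axis, RPKM) by postnatal day (horizontal axes) in control (black) and SMA (orange) mice, a panel for each population; circles are mice and bars are mean ± SD. In facial neurons of day 10 the 4 controls lie between 29.0 and 38.2 RPKM and the 4 SMA mice between 7.56 and 13.1, and in lumbar neurons of day 10 the groups also do not overlap.

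Lumbar neurons of day 10 showed Chrm2 at 31.2, 33.2, 38.0 and 40.6 RPKM in controls and 18.9, 19.5, 24.9, 25.1 and 26.2 in SMA mice. These groups did not overlap, but the difference of -0.62 missed the threshold (SE 0.181, adjusted p = 0.112, and between 0.0771 and 0.298 in the alternatives). Hypoglossal neurons differed by -0.42 (SE 0.289, adjusted p = 0.855), red nucleus by -0.32 (SE 0.415, adjusted p = 0.973), ocular by 0.48 (SE 0.426, adjusted p = 1.0) and vagus by 0.05 (SE 0.490, adjusted p = 1.0). The F test for a genotype difference at day 10 that varies among the motor populations gave F = 4.70 for Chrm2 (adjusted p = 0.164). No member was called in it, against 0.485% of all genes, so the facial difference is not shown to differ from those elsewhere. At an unadjusted p under 0.05 there were 2 of 9 members and 1403 of 22270 genes.

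Chat was lower in SMA at day 10 in each of the 5 motor populations, with differences of -0.69 in facial, -0.57 in hypoglossal, -0.47 in ocular, -0.44 in lumbar and -0.05 in vagus, none past the threshold (smallest adjusted p 0.396, lumbar). In lumbar neurons it was 37.9, 42.1, 43.0 and 44.1 RPKM in controls and 22.4, 31.7, 31.9, 33.7 and 33.9 in SMA mice, and in facial neurons 24.2, 28.7, 29.0 and 35.7 against 13.4, 15.03, 20.1 and 24.0. Neither pair of groups overlapped. Slc5a7 (-0.63 to -0.02) and Ache (-0.20 to -0.06) were also negative in 5 of 5 populations at day 10, without a call. These populations come from the same mice, so the 5 signs are not independent of each other. Of the 15 motor comparisons over all days, SMA was higher in 8 for Chat, 6 for Slc5a7 and 9 for Ache. At day 5 the motor mean of Ache was higher in SMA by 0.20 (SE 0.0865, limma adjusted p = 0.447). In ocular neurons of day 10, Slc5a7 was 171, 186, 219 and 227 RPKM in controls and 72.2, 130, 149, 155 and 164 in SMA mice, again without overlap (-0.63, SE 0.197, adjusted p = 0.341). In ocular neurons of day 2 it was 166 to 180 RPKM in controls and 89.5 to 155 in SMA mice, also apart and without a call. The share of all genes whose groups do not overlap was not computed, here or for the other comparisons.

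Markers of the captured cells moved with some of these day 10 comparisons. In ocular samples the summed motor neuron markers were 362 to 703 RPKM in SMA mice (median 535) and 682 to 796 in controls (median 740.3). The glutamatergic markers Pou4f1 and Slc17a6 reached a sum of 177 RPKM in ocular SMA samples (median 23.8) against at most 16.9 in controls, and the monoaminergic sum reached 45.95 against 11.97. In hypoglossal samples the glutamatergic sum was 17.7 to 26.996 RPKM in SMA mice and 3.46 to 13.1 in controls, without overlap. The GABA and glycine markers Gad1, Gad2, Slc32a1 and Slc6a5 summed there to 29.4 to 107 against 2.61 to 58.1, and the motor neuron sum was 817 to 1263 against 1040.1 to 1380.2. Facial astrocyte sums did not overlap, as given above with Chrm2. In lumbar samples the motor neuron (1177 to 1373 against 1114 to 1685), astrocyte, glutamatergic and GABA and glycine sums overlapped. The part of these cells in the Chat and Slc5a7 differences was not tested.

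Prima1 held the largest positive difference, and Chrnb4 was also higher at day 10, both without a call. In ocular neurons of day 2, Prima1 was 0, 0.289, 0.369 and 0.929 RPKM in controls and 2.78 to 15.03 in 6 SMA mice (median 7.75; 2.62 higher, SE 0.643, adjusted p = 0.0993). In facial neurons of day 10, Chrnb4 was 0.104, 0.587, 0.674 and 1.002 RPKM in controls and 1.48, 1.58, 2.72 and 5.88 in SMA mice (1.199, SE 0.397, adjusted p = 0.261). Both sets of groups were apart, and both differences missed the threshold. Prima1 was also apart in vagus neurons of day 5, uncalled, at 10.5 to 17.5 RPKM in controls and 25.7 to 46.8 in SMA mice. The 4 monoaminergic markers reached a sum of 436.5 RPKM in 1 of the ocular SMA samples of day 2 and at most 14.9 in the ocular controls, and their part in the Prima1 values was not tested. Averaged over the 5 motor populations with equal weight, 0 of 27 member tests were called in limma. The shares of all genes called were 1.07%, 0.184% and 1.61% at days 2, 5 and 10. At an unadjusted p under 0.05 there were 6 of 27 member tests, and 2529, 1971 and 2237 of 22270 genes at those days. At day 10 these averages were 0.46 for Chrnb4 (SE 0.148, adjusted p = 0.0951), -0.45 for Chat (SE 0.181, adjusted p = 0.292) and -0.41 for Chrm2 (SE 0.167, adjusted p = 0.303). Chrnb4 passed the threshold when the mouse was not used as a block (adjusted p = 0.0475) or without SMA mouse 199 (adjusted p = 0.0307). Of the further genes, Acly was called lower at day 10 by -0.28 (SE 0.0664, adjusted p = 0.00656) and lower in 5 of 5 populations; control and SMA means were 411 and 344 RPKM in facial, 341 and 274 in hypoglossal and 701 and 584 in ocular neurons.

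**Figure D5:**
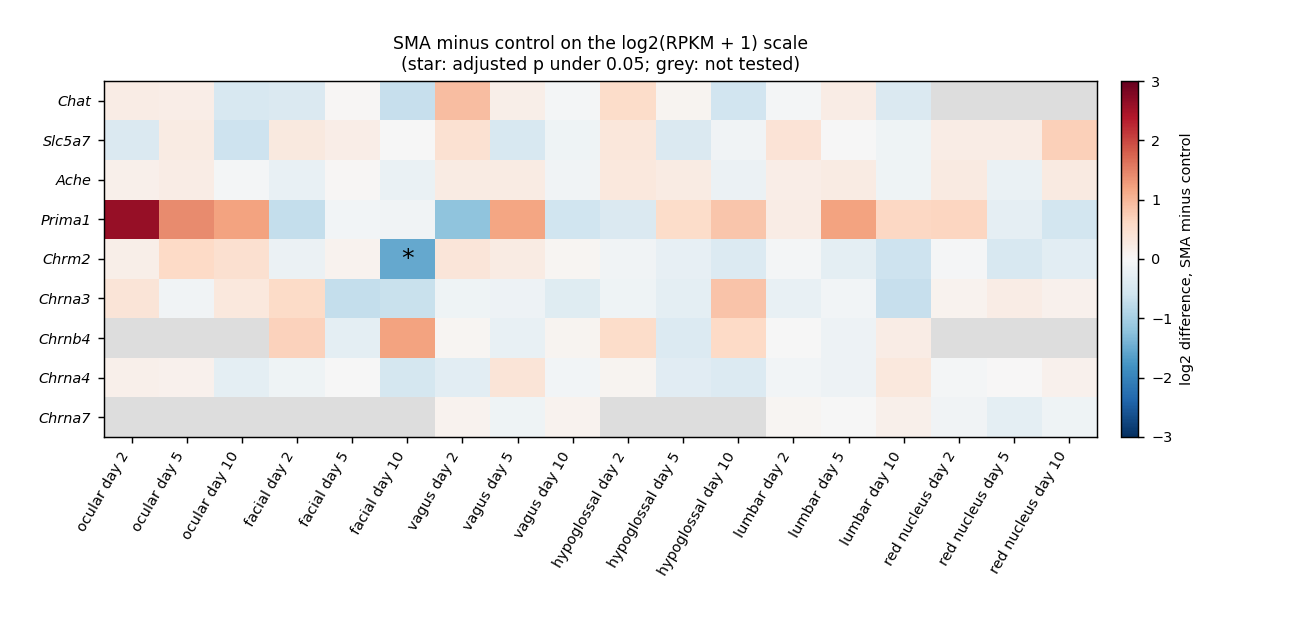
SMA minus control differences on the log2(RPKM + 1) scale (colour, red higher in SMA, blue lower) for 9 genes (rows) in 18 comparisons of population and day (columns); grey cells did not pass the filter on low values and the star marks an adjusted p under 0.05. The only star is facial day 10 Chrm2 at -1.54, and the largest positive cell, ocular day 2 Prima1 at 2.62, has none.

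Whether the change from day 2 to day 10 differed between genotypes was tested in each population, and 0 of 48 member tests were called in limma (7 at an unadjusted p under 0.05). The shares of all genes called were 0.126% in ocular, 0.122% in facial, 0.0% in vagus, 0.0% in hypoglossal, 0.0% in lumbar and 0.0% in red nucleus. At an unadjusted p under 0.05, all genes gave between 970 of 16703 (vagus) and 1378 of 16382 (lumbar). Chat in SMA mice averaged 16.9 ± 3.68 RPKM at day 2 (SD, n = 6) and 26.6 ± 7.03 at day 10 (n = 5) in hypoglossal neurons, a smaller step than in controls by -1.12 (SE 0.427, adjusted p = 0.581). Ache in SMA mice did not overlap between day 2 and day 10 in ocular, facial, vagus and red nucleus samples, with means of 141 and 217 RPKM in ocular neurons. Chrna4 in SMA lumbar neurons was 34.2 to 67.9 RPKM at day 2 (n = 7, median 39.2) and 16.9, 20.8, 22.4, 25.9 and 26.2 at day 10, a drop without overlap as in controls.

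To place Chat among all genes, the correlation of group means on the log2(RPKM + 1) scale was taken over 22269 genes; the groups share libraries and mice, so it is a description only. Over the 36 groups, the closest genes outside the cholinergic lists were Msn (Pearson's r = 0.965), Slc10a4 (0.939), Hspb8 (0.934), Ecel1 (0.925) and Ifi27 (0.925), and Slc5a7 had 0.951. All 5 were low in the red nucleus, with control means of 0.211 to 3.52 RPKM, and had motor means of 21.1 RPKM or more. Over the 30 motor groups alone, where the contrast with the red nucleus plays no part, the closest were Purb (0.877), Mbnl2 (0.875), Pura (0.851), Gabarapl1 (0.822) and Ube2l3 (0.807). There Ache had 0.743 and Slc5a7 0.495. These last 5 genes were also present in the red nucleus, at control means of 20.0 to 291 RPKM.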

How the data were processed

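RNA of about 150 laser-captured neurons per tube was sequenced after Smart-seq2 and Tn5 tagmentation, per the labels' protocols. The authors deposited a table of RPKM, and per the submitters' processing notes the tools and builds named were STAR 2.4.1c, mm10 and hg19. The read counter, its annotation and its use of strand are not given in the sources used here. The 168 libraries were averaged by mouse and population to 160 samples of 34 mice. Depth was recovered from RPKM steps of 17340 genes with a single transcript, and low values lay within 0.02 of a whole read for a median of 75.3% of values, so no count test was run. Fits used limma 3.58.1 in R 4.3.3 on log2(RPKM + 1), two-sided, with Benjamini-Hochberg adjustment over all genes and a threshold of 0.05. Genes needed an RPKM of 1 in as many samples as the smallest group. Genotype and age were fitted within each population, and population differences and motor means in a fit of 36 groups with the mouse as a random block, because the samples of a mouse share the animal (consensus correlation 0.0366). Alternatives were a pseudocount of 0.1, no filter, quantile normalization, libraries as samples, other groups in the fit, other block terms and leaving out each of 34 mice. All members were named, with values for called members and for at most 4 called further genes per comparison. The scripts were tested on simulated data. Of the oligodendrocyte markers, 1 is not reported here. Members and lists were chosen with earlier results of these data known. Gene positions came from GENCODE M21 (GRCm38) and promoters from RefSeq (GRCm38.p6).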

Additional observations from a re-analysis of the deposited data

Results flagged for a closer look

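For each called difference with age or genotype, the values of that gene in the groups compared were examined for a sample apart from the rest. Of these 26 sets of a gene in a group of at least 4 mice, 1 had such a sample, and chance gives about 1 in 20. Slc5a7 in lumbar control neurons of day 2 was 127.1 RPKM in mouse 28, while the other 3 mice had 61.2, 64.5 and 71.6. Of these, mice 240 and 244 were also the lowest day 2 controls in facial (40.7 and 45.8 RPKM), hypoglossal (54.6 and 65.0) and vagus neurons (40.3 and 26.8). In ocular neurons mouse 244 had 169 RPKM, within the range of the other controls. Whether these mice differ as a set was not tested. Without mouse 28, Slc5a7 was also called higher at day 10 than at day 2 in lumbar neurons (0.67, limma adjusted p = 0.00486, against 0.125 with it).

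The change of Chrna4 from day 2 to day 10 in control mice differed between the motor populations (limma F test, adjusted p = 2.72e-05). Lumbar neurons had -1.35 and ocular neurons 0.46 on the log2(RPKM + 1) scale. The adjusted p stayed at or below 0.00126 in the 40 alternatives run.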

How the results depend on the processing

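Of 46 called results of single genes, 40 kept their call under every alternative run, 6 lost it at least once and 0 changed sign. The 6 are given beside their values: Slc5a7, Ache (facial and hypoglossal) and Chat (vagus) with age, Chrna3 with age in the red nucleus, and Chrna3 in lumbar neurons between populations. The count of members called between genotypes over the motor mean was 0 with the mouse as replicate block and 1 with no replicate block (Chrnb4, day 10). Over the fits that leave out each mouse in turn it was 0 to 1, the call arising without SMA mouse 199. The block changed no other call of a member, and as a fixed effect in controls alone it also gave 31 calls between populations. Calls with age numbered 13 and ranged from 9, in fits restricted to the groups being contrasted, to 15 over all alternatives. Leaving out ocular libraries of a single nucleus left 1 ocular control at day 5, which was assumed to vary like the other groups. Depth limits Chrna7, Chrnb4 and Prima1 most, since 3 reads reached 0.463, 0.560 and 1.66 RPKM in the shallowest motor library and 1.95, 2.36 and 7.00 RPKM in the shallowest red nucleus library.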
